A study of Mus musculus with 14 samples.

Results

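Colonic Tregs were compared with CD25- Peyer's patch (PP) Tregs of mice in which JunB was still present, using 5 of the 14 RNA-seq samples of the study: 3 colonic and 2 PP libraries of heterozygous control (iHET) mice. Per the methods of the study the colonic group held 3 animals. Whether the PP libraries came from some of the same mice is not stated in the sources used here, and p-values measure the spread between these samples. The mice were Junb F/+ Foxp3 EGFP-cre-ERT2 Rosa26 STOP-tdTomato males and females of 10 to 12 weeks, so that all 5 carried a tamoxifen-inducible Cre under Foxp3 and a reporter of Cre activity. They were gavaged with 8 mg tamoxifen on day 0, day 1 and day 3, which makes 3 doses, with analysis on day 7, so both groups share the drug, the Cre and 1 floxed Junb allele, and neither is a wild type. Colonic cells were sorted as TCRb+CD4+Foxp3(EGFP)+tdTomato+ from lamina propria, and PP cells by the same gate with CD25- added. Organ and CD25 gate therefore differ together and cannot be told apart, and so does tissue preparation, since colon but not PP was treated with EDTA and dispase and passed over Percoll. The labels put 1 male and 2 females in the colonic group and 1 male and 1 female in the PP group. They give the Cre genotype as Foxp3ERT2cre+ in the males and Foxp3ERT2cre+/+ in the females, so Cre alleles run with sex.

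Tregs are CD4+ T cells that express the transcription factor Foxp3 and restrain immune responses. In the colonic lamina propria many of them express the IL-33 receptor ST2 and some express genes of the IL-17 axis. They respond there to the epithelium and the microbiota. PP contain germinal centers in which follicular regulatory (Tfr) cells, often low in the IL-2 receptor chain CD25, act on B cell responses. JunB is a member of the AP-1 family, whose dimers bind DNA together with partners such as BATF and IRF4.

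The deposited values were read counts per gene, with 26503163 to 35508709 counts per library. Levels below are CPM, counts scaled to the size of the library after TMM normalization. Differences are log2 fold changes of colonic over CD25- PP Tregs from edgeR's quasi-likelihood test with their standard errors (SE), and adjusted p are Benjamini-Hochberg values over the 17238 genes that reached 1 CPM in 2 or more of the libraries. Replicates of a group correlated at r = 0.929 to 0.967 in log2 CPM across genes and libraries of different groups at 0.892 to 0.930, where genes are not independent. At least 1 read was counted for 26297, 31236 and 27069 genes in the colonic and for 35281 and 36131 genes in the PP libraries.

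T cell genes were abundant in every library, with 10 of 10 defining genes tested and a summed level of 6793, 6517 and 7647 CPM in colonic and 8225 and 8388 CPM in PP libraries. Foxp3 was at 154, 139.5 and 115 CPM in colonic and 77.7 and 59.2 CPM in PP libraries (log2 fold change 0.99, SE 0.202, adjusted p = 0.0617). The groups did not overlap, but the difference missed the threshold. Il2ra (ENSMUSG00000026770.5, chromosome 2 from 11642807 to 11693193 of GRCm38), which encodes CD25 and so follows the sort gate, was at 556, 742 and 622 CPM in colonic and 184 and 207 CPM in PP libraries (log2 fold change 1.71, SE 0.194, adjusted p = 0.0172). The CD25- libraries thus still held Il2ra transcripts, at a mean of 195 ± 16.1 CPM (SD, n = 2). Junb (ENSMUSG00000052837.6, chromosome 8 from 84974484 to 84978718; it shares 173 exon bases with Prdx2) was at 6813, 8365 and 7535 CPM in colonic and 5531 and 4147 CPM in PP libraries. Its colonic level was 1.56-fold the PP level, a difference that did not pass the threshold (log2 fold change 0.65, SE 0.211, adjusted p = 0.166).

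Of the 17238 genes tested, 430 (2.49%) were differentially expressed at an FDR of 0.05, of which 285 (1.65%) were higher and 145 (0.841%) lower in colonic Tregs. The medians were log2 fold changes of 2.05 among the higher and -2.04 among the lower genes, and 408 of the 430 changed at least 2-fold. The groups did not overlap in any of the 430, against 19.6% of all tested genes with every colonic library above both PP libraries and 19.5% with every colonic library below. The number of calls rested on the few libraries. It was 39 without PP replicate 1 and 2 without PP replicate 2, which leaves 1 PP library in either case, and 118 without colonic replicate 2 and 756 without colonic replicate 1. Sostdc1 was the only gene called in all 5 fits that left out a library, so every other call below was lost in at least 1 of them, while the direction of the 430 genes held in each fit that tested them. Groups that do not overlap keep their direction when a library is left out, so that outcome was fixed in advance. A fit with a term for sex, which is also a term for Cre alleles, called 139 genes.

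**Figure D1:**
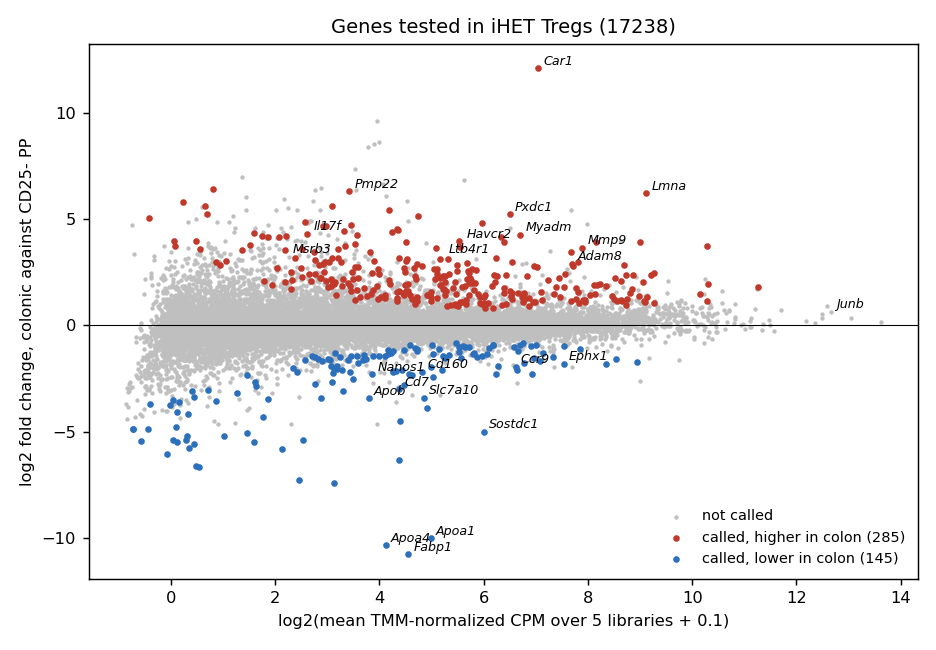
Log2 fold change of colonic against CD25- PP Tregs of iHET mice (y axis) by mean level over the 5 libraries (x axis, log2 of TMM-normalized CPM plus 0.1) for the 17238 genes tested. Red points are the 285 genes called higher and blue points the 145 called lower in colonic Tregs, with the labelled genes named in the text, where Junb lies toward the right with a log2 fold change of 0.65 and Car1, Fabp1, Apoa1 and Apoa4 at the extremes.

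Of the genes higher in colonic Tregs, Pmp22, Myadm and Adam8 shared the lowest adjusted p. Myadm (ENSMUSG00000068566.12, chromosome 7 from 3289080 to 3300442; 236 exon bases shared with another gene), which encodes a membrane protein of lipid rafts, was at 142, 191 and 168 CPM in colonic and 9.56 and 7.82 CPM in PP libraries (log2 fold change 4.26, SE 0.228, adjusted p = 0.00250). Adam8 (ENSMUSG00000025473.16, chromosome 7 from 139978932 to 139992562; 46 exon bases shared with Gm16201), a surface metalloprotease that sheds adhesion molecules, was at 297, 318 and 332 CPM against 41.0 and 43.8 CPM (log2 fold change 2.90, SE 0.163, adjusted p = 0.00250). For both genes every colonic value lay more than 6-fold above the higher PP value. Lmna (ENSMUSG00000028063.15, chromosome 3 from 88480147 to 88509956), which encodes lamin A and C of the nuclear lamina, was at 669, 1321 and 766 CPM in colonic and 13.3 and 11.6 CPM in PP libraries (log2 fold change 6.20, SE 0.413, adjusted p = 0.00418). Mmp9 (ENSMUSG00000017737.2, chromosome 2 from 164940780 to 164955850), a secreted gelatinase that cleaves matrix, was at 483, 348 and 296 CPM in colonic and 30.0 and 30.2 CPM in PP libraries (log2 fold change 3.64, SE 0.268, adjusted p = 0.00543). Ltb4r1 (ENSMUSG00000046908.5, chromosome 14 from 55765962 to 55768494), the receptor of the chemoattractant lipid leukotriene B4, stood at 107, 115 and 167 CPM against 6.86 and 7.65 CPM, and Il17f, Havcr2, Pmp22, Pxdc1 and Msrb3 complete the 10 lowest p-values in this direction, with log2 fold changes of 4.24, 3.67, 6.31, 5.22 and 3.74 and adjusted p of 0.00418, 0.00778, 0.00250, 0.00418 and 0.00778.

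Among genes lower in colonic Tregs, Sostdc1 (ENSMUSG00000036169.6, chromosome 12 from 36314139 to 36318452), a secreted antagonist of BMP and Wnt signals that is made by follicular T cells, ranked first by p-value over the whole table. It was at 4.23, 5.39 and 4.57 CPM in colonic and 154 and 153 CPM in PP libraries, 32.4-fold more in PP (log2 fold change -5.01, SE 0.179, adjusted p = 0.000544). Ccr9 (ENSMUSG00000029530.16, chromosome 9 from 123678439 to 123784330; 2201 of its exon bases are shared with other genes), the receptor that directs T cells to the small intestine, was at 48.8, 41.6 and 45.9 CPM in colonic and 174 and 179 CPM in PP libraries (log2 fold change -1.95, SE 0.146, adjusted p = 0.00556). Replicates of either group were within 10 CPM of each other. Cd160 (ENSMUSG00000038304.14, chromosome 3 from 96798763 to 96829351), a receptor for HVEM, and Cd7 (ENSMUSG00000025163.6, chromosome 11 from 121036747 to 121039418), a lymphocyte surface glycoprotein, fell from 51.3 and 55.0 CPM in PP to 12.2, 10.3 and 12.6 CPM in colonic libraries and from 47.3 and 40.4 CPM to 4.90, 4.35 and 6.94 CPM, with an adjusted p of 0.00778 for each. The amino acid transporter gene Slc7a10, the epoxide hydrolase gene Ephx1 and Nanos1 were lower with log2 fold changes of -3.40, -1.82 and -2.30 and adjusted p of 0.00722, 0.00930 and 0.0120. The 3 others of the 10 lowest p-values were the apolipoprotein genes Apoa1, Apoa4 and Apob, which are described with the epithelial transcripts.

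Genes of IL-2 receptor signaling, through which STAT5 sustains Tregs, rose in part. Of 19 members tested, 4 were higher in colonic Tregs, none was lower, and the median log2 fold change was 0.70, beside -0.00115 over all genes tested. For the counts of this and the following lists, the shares over all genes tested were 1.65% higher and 0.841% lower. Bcl2l1, which encodes the survival protein BCL-xL, was at 214, 266 and 282 CPM in colonic and 56.8 and 53.6 CPM in PP libraries (log2 fold change 2.20, SE 0.186, adjusted p = 0.00778). Its colonic values were all over 3-fold the higher PP value. Socs2 and Cish, STAT5 targets that dampen cytokine signaling, were at 101, 134 and 147 CPM against 29.0 and 20.8 CPM (log2 fold change 2.36, SE 0.248, adjusted p = 0.0154) and at 511, 511 and 522 CPM against 219 and 229 CPM (log2 fold change 1.20, SE 0.149, adjusted p = 0.0200). Cish differed by less than 12 CPM within either group. Il2ra was the other called member, so that the list includes the gene used for the sort. Il2rb, the beta chain of the receptor, was not called, with a log2 fold change of 0.70 (adjusted p = 0.0807). Pim1, a STAT5-induced kinase gene, had values of 1776, 1869.8 and 1657 CPM in colonic and 683 and 107 CPM in PP libraries (adjusted p = 0.163), so the PP replicates differed more than 6-fold from each other. Bcl2, the member farthest in the other direction, had a log2 fold change of -0.80 (adjusted p = 0.234).

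Genes of ST2+ and tissue-repair Tregs showed 6 of 15 members higher and none lower. The list had a median log2 fold change of 1.44, and all 15 fold changes were positive, compared with 49.9% of all genes tested. Il1rl1 (ENSMUSG00000026069.15, chromosome 1 from 40429570 to 40465415), which encodes ST2, was at 285, 325 and 419 CPM in colonic and 53.0 and 33.2 CPM in PP libraries (log2 fold change 2.99, SE 0.293, adjusted p = 0.0132). Rora, a nuclear receptor of tissue Tregs, was at 766, 864 and 1005 CPM against 211 and 127 CPM (log2 fold change 2.38, SE 0.276, adjusted p = 0.0192). Klrg1, an inhibitory receptor for cadherins and a marker of differentiated Tregs, was at 228, 468 and 669.8 CPM against 33.0 and 27.5 CPM (log2 fold change 3.91, SE 0.489, adjusted p = 0.0202). In these 3 genes the lowest colonic value was more than 3-fold the highest PP value. The other called members were Tnfrsf9 (4-1BB), Prdm1 (Blimp-1) and Pparg, with log2 fold changes of 1.96 (adjusted p = 0.0356), 1.07 (adjusted p = 0.0471) and 3.45 (adjusted p = 0.0480), where Pparg stayed under 15 CPM in every library. Gata3, a transcription factor of ST2+ Tregs, was at 800.4, 800.5 and 1091 CPM against 535 and 492 CPM and was not called (adjusted p = 0.0961). The chemokine receptor gene Ccr8 had a log2 fold change of 1.44 (adjusted p = 0.103). Areg, the repair factor amphiregulin, ranged from 454 and 95.0 CPM in PP to 389.6, 669.7 and 669 CPM in colonic libraries with overlap of the groups (adjusted p = 0.406).

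Genes of the IL-17 axis were higher for 4 of 10 members and lower for none, at a median log2 fold change of 1.60. Production of IL-17 by these cells was not measured. Il17f (ENSMUSG00000041872.9, chromosome 1 from 20777146 to 20790617), a cytokine of the IL-17 family, was near 1 CPM in both PP libraries, at 0.994 and 0.960 CPM, and at 16.7, 21.4 and 19.1 CPM in colonic libraries (log2 fold change 4.24, SE 0.274, adjusted p = 0.00418). Its level thus stayed under 22 CPM in every library. Il23r and Ccr6, the receptors of IL-23 and of the chemokine CCL20, had log2 fold changes of 2.75 (adjusted p = 0.0349) and 1.25 (adjusted p = 0.0356). Il17a was at 15.6, 18.1 and 20.2 CPM against 5.69 and 1.89 CPM and missed the threshold (adjusted p = 0.0654), and Maf, a transcription factor of intestinal Tregs, was the only member with a negative value, -0.28 (adjusted p = 0.490).

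Over 12 tested T helper cytokine genes, 2 were higher, Il17f and Ifng, none was lower, and the median log2 fold change was 1.91. Ifng was at 17.6, 13.4 and 13.7 CPM in colonic and 3.94 and 5.90 CPM in PP libraries (log2 fold change 1.59, adjusted p = 0.0475). Genes of type 2 and other effector cytokines were at a few CPM, with Il5 at 1.27, 2.90 and 6.58 CPM and 0.206 and 0.0686 CPM, Csf2 at 2.82, 1.15 and 5.53 CPM and 0.0343 and 0.309 CPM and Il22 at 1.09, 1.81 and 10.3 CPM and 0 and 0.686 CPM in colonic and PP libraries, none of them called (adjusted p = 0.0636, 0.0958 and 0.258). The follicular cytokine genes Il4 and Il21 had values in the other direction, at log2 fold changes of -1.80 (adjusted p = 0.0545) and -1.81 (adjusted p = 0.127).

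**Figure D2:**
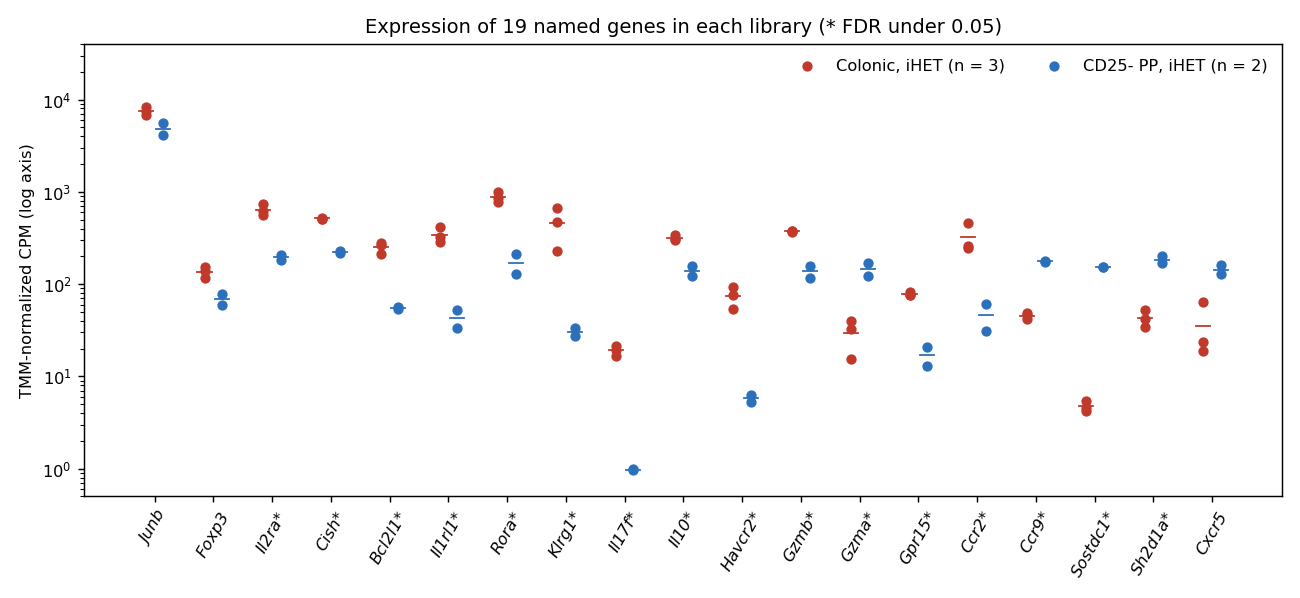
TMM-normalized CPM (log axis) of 19 named genes in each library, with colonic iHET libraries in red (n = 3) and CD25- PP iHET libraries in blue (n = 2); short bars are group means and asterisks mark genes past an FDR of 0.05. The genes were picked from those named, and genes whose groups overlap, such as Ccr7 and Areg, are not among them. The 2 groups thus do not overlap for any gene shown, against 19.6% (colon above) and 19.5% (colon below) of all genes tested. Gzmb lies above in colon at 380.3, 369.7 and 379.7 CPM while Gzma lies below at 40.0, 15.4 and 32.7 CPM.

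Receptors that place T cells in tissue went both ways. Of 14 tested genes of tissue homing and retention, 4 were higher and 1 was lower, with a median log2 fold change of 0.70. Gpr15, which directs Tregs to the large intestine, was at 75.7, 82.1 and 75.7 CPM in colonic and 20.8 and 13.0 CPM in PP libraries (log2 fold change 2.20, SE 0.242, adjusted p = 0.0162), whereas Ccr9, described above, was the called member in the other direction. The inflammatory chemokine receptor genes Ccr1 and Ccr2 were at 47.5, 54.1 and 58.4 CPM against 6.72 and 1.89 CPM (log2 fold change 3.62, SE 0.529, adjusted p = 0.0292) and at 458, 259 and 245 CPM against 60.2 and 31.3 CPM (log2 fold change 2.81, SE 0.417, adjusted p = 0.0306). Cxcr6, a receptor of tissue-resident lymphocytes, rose by a log2 fold change of 1.76 (adjusted p = 0.0416). Itgb7, the beta chain of the gut-homing integrin, had a log2 fold change of 0.72 (adjusted p = 0.0865), and Cd69, a marker of retention, 0.43 (adjusted p = 0.229).

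None of 9 genes of lymphoid homing and egress was called, at a median log2 fold change of -0.35. Ccr7, which guides T cells to lymph nodes, was at 913, 721 and 541 CPM in colonic and 1081 and 764 CPM in PP libraries (log2 fold change -0.35, adjusted p = 0.543), so its groups overlapped. The member farthest in the other direction was Il7r, at 0.67 (adjusted p = 0.0888).

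Suppressive effectors were higher for 3 and lower for 1 of 12 tested genes, with a median log2 fold change of 0.76. Il10 (ENSMUSG00000016529.5, chromosome 1 from 131019845 to 131024974), an anti-inflammatory cytokine, was at 337, 304 and 308 CPM in colonic and 155 and 123 CPM in PP libraries (log2 fold change 1.18, SE 0.172, adjusted p = 0.0291). Havcr2, which encodes TIM-3, an inhibitory receptor of effector Tregs, was at 53.6, 75.3 and 92.5 CPM against 6.24 and 5.28 CPM (log2 fold change 3.67, SE 0.298, adjusted p = 0.00778), and Fgl2, a secreted suppressive fibrinogen-like protein, at 491, 638 and 596 CPM against 156 and 118 CPM (log2 fold change 2.07, SE 0.214, adjusted p = 0.0154). Each of the 3 genes was at least 1.9-fold higher in the lowest colonic than in the highest PP library. Itgb8, a subunit of the integrin that activates latent TGF-beta, went the other way, at 46.4, 34.6 and 29.1 CPM against 122 and 78.8 CPM (log2 fold change -1.45, SE 0.266, adjusted p = 0.0475). Ctla4, the most abundant of the list, was at 2532, 3163 and 2800.3 CPM and 1986 and 1349 CPM and was not called (log2 fold change 0.76, adjusted p = 0.139), nor were Tgfb1 at 0.75 (adjusted p = 0.103), Entpd1 (CD39) at 0.71 (adjusted p = 0.139) or Nt5e (CD73) at -0.53 (adjusted p = 0.167).

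The granzyme genes were divided. Gzmb (ENSMUSG00000015437.5, chromosome 14 from 56258838 to 56262260), a cytotoxic protease that Tregs can use in suppression, was at 380.3, 369.7 and 379.7 CPM in colonic and 159 and 116 CPM in PP libraries (log2 fold change 1.46, SE 0.189, adjusted p = 0.0218). Gzma (ENSMUSG00000023132.8, chromosome 13 from 113093825 to 113100981), a granzyme of other specificity, was at 40.0, 15.4 and 32.7 CPM against 167 and 123 CPM (log2 fold change -2.31, SE 0.382, adjusted p = 0.0386). Per kilobase of exon, Gzmb averaged 262 and Gzma 29.2 CPM per kb in colonic libraries, and 95.6 and 145 CPM per kb in PP libraries, so that the level of Gzmb was above that of Gzma in colon and below it in PP. Of 16 cytotoxic effector genes tested, 1 was higher and 3 were lower, with a median log2 fold change of -0.30. The other lower members were Ccl5, a chemokine, at 8.92, 5.89 and 12.9 CPM against 49.0 and 45.9 CPM (log2 fold change -2.36, SE 0.321, adjusted p = 0.0231), and the granule protease gene Ctsw, at a log2 fold change of -1.02 (adjusted p = 0.0322). Prf1, the pore-forming partner of granzymes, stayed between 6.58 and 13.6 CPM in the 5 libraries (adjusted p = 0.684). Cd8a, a defining marker of CD8+ T cells, was at 1.13, 0.710 and 0.691 CPM in colonic and 2.64 and 13.5 CPM in PP libraries, and the NK cell marker Klrb1c at 1.09, 0.207 and 0 CPM and 9.08 and 13.8 CPM. Over the 6 tested markers of CD8+, NK and gamma-delta cells, the summed level was 18.8, 16.0 and 21.0 CPM in colonic and 25.0 and 54.0 CPM in PP libraries, and its part in the lower Gzma, Ccl5 and Ctsw was not tested.

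The upstream sequences of genes that rose in colon are shown because JunB belongs to a family that binds the palindrome TGANTCA. Windows of 250 bases before to 50 after the gene start, from RefSeq on GRCm38.p6, were matched by symbol for 312 of the 430 called genes. TGANTCA, searched on both strands, which read alike, was found in 23 of 213 windows of genes higher in colonic Tregs (10.8%), in 3 of 99 windows of lower genes (3.03%), in 622 of 11450 windows of all tested genes (5.43%) and in 2144 of 27025 windows of the whole table (7.93%). As a second motif, TTCNNNGAA, the site of STAT proteins, was found in 9.39%, 8.08%, 6.97% and 8.47% of the same windows. A match is a description of letters and does not show that a factor binds. Among the genes with a match were 6 members of the gene lists: Gzmb, Fgl2, Havcr2, Gpr15, Ffar2 and Prdm1. Their 250 bases before the gene start read as follows, 5′ to 3′ on the strand of the gene, with TGANTCA in capitals.
Gzmb (chr14:56262335-56262584, minus strand): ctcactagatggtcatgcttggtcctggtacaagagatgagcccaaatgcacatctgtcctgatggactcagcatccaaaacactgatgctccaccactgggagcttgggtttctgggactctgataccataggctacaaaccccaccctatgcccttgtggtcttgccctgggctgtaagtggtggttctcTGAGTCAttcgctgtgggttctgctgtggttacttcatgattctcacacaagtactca
Fgl2 (chr5:21372423-21372672, plus strand): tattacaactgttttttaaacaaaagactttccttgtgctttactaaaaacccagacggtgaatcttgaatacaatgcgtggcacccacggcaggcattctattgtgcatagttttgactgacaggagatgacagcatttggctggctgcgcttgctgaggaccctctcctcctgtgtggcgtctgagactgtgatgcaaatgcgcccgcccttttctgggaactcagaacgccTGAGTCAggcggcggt
Havcr2 (chr11:46454681-46454930, plus strand): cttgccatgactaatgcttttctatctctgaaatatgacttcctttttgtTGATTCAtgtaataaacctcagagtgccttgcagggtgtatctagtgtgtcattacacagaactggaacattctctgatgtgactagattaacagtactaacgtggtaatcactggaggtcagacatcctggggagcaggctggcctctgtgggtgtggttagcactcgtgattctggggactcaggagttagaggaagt
Gpr15 (chr16:58718873-58719122, minus strand): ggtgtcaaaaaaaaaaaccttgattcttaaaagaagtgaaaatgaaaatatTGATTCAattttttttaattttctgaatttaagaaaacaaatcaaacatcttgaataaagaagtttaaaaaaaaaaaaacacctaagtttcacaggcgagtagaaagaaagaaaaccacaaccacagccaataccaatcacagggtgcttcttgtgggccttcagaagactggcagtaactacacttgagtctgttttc
Ffar2 (chr7:30823776-30824025, minus strand): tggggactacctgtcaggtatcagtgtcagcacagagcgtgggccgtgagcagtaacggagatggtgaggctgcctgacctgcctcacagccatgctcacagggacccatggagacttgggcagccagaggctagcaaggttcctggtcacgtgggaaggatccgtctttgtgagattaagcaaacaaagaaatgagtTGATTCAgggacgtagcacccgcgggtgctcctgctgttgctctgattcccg
Prdm1 (chr10:44458749-44458998, minus strand): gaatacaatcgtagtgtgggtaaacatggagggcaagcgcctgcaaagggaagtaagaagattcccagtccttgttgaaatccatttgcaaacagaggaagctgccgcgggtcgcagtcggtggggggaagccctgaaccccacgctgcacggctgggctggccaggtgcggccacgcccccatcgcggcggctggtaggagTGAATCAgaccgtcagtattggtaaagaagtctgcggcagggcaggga
In these genes the motif began between 16 bases (Fgl2) and 200 bases (Havcr2) before the RefSeq gene start, at 58 bases in Gzmb, 48 in Prdm1, 52 in Ffar2 and 199 in Gpr15. For Gzmb the RefSeq start lies upstream of the gene position given above, so the distance to that position is longer. Their log2 fold changes lay between 1.07 (Prdm1) and 3.67 (Havcr2).

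Genes of Tfr and Tfh cells had the lowest median of the T cell lists, at a log2 fold change of -1.16. Of 20 members tested, 3 were lower, none was higher and 3 had a positive value. For 13 of the 20, every colonic library lay below both PP libraries, against 19.5% of all genes tested, and for 1 every colonic library lay above. After Sostdc1, the lowest p-values were those of Sh2d1a, which encodes the adaptor SAP required for T cell help to B cells, at 41.5, 34.3 and 52.8 CPM in colonic and 199 and 169.6 CPM in PP libraries (log2 fold change -2.11, SE 0.212, adjusted p = 0.0150), and of Btla, an inhibitory receptor, at 54.5, 54.5 and 50.5 CPM against 97.7 and 106 CPM (log2 fold change -0.94, SE 0.142, adjusted p = 0.0322). Genes that define follicular cells missed the threshold. Cxcr5, the follicle-homing receptor, was at 63.4, 23.8 and 18.8 CPM against 159.7 and 127 CPM (log2 fold change -2.02, adjusted p = 0.0916). Bcl6, the transcription factor of follicular T cells, was at 57.7, 86.4 and 74.2 CPM against 218 and 94.1 CPM (log2 fold change -1.10, adjusted p = 0.160), where PP replicate 2 lay closer to the colonic libraries than to PP replicate 1. Tcf7 and Lef1, transcription factors of less differentiated T cells, had log2 fold changes of -1.66 (adjusted p = 0.0717) and -1.32 (adjusted p = 0.0584), and Cd200, Slamf6 and Il4 of -1.38, -1.22 and -1.80 (adjusted p = 0.0504, 0.0510 and 0.0545). The costimulatory receptor genes Icos and Pdcd1 (PD-1) had positive values that were not called, with Icos at 888, 830.4 and 905 CPM against 741 and 400.0 CPM (adjusted p = 0.281) and Pdcd1 at 629, 973 and 1089.8 CPM against 737 and 521 CPM (adjusted p = 0.387). In bulk libraries, fewer cells of a type and less RNA per cell cannot be told apart, here and for the other lists of Treg subsets.

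Over 16 genes of the AP-1 family and its partners the median log2 fold change was 0.84, and 2 were higher and none was lower. Atf3, a stress-induced factor that pairs with Jun proteins, was at 183, 480.5 and 299 CPM in colonic and 43.5 and 15.5 CPM in PP libraries (log2 fold change 3.44, SE 0.599, adjusted p = 0.0426), and Irf8, an interferon regulatory factor that binds with BATF, at 59.7, 73.5 and 57.4 CPM against 27.1 and 32.7 CPM (log2 fold change 1.09, SE 0.193, adjusted p = 0.0443). Irf4, the partner of JunB and BATF in effector Tregs, was at 278, 398 and 297 CPM against 138 and 75.3 CPM and just missed the threshold (log2 fold change 1.61, adjusted p = 0.0518). Jund, Fosb and Fosl1 had values of 0.87 (adjusted p = 0.122), 2.41 (adjusted p = 0.0903) and 3.67 (adjusted p = 0.0740), and Bach2, a repressor that competes at AP-1 sites, was the only member with a negative value, -0.73 (adjusted p = 0.328). Fosl2 was at 589, 736 and 591 CPM in colonic and 516 and 69.5 CPM in PP libraries, so PP replicate 1 lay near the colonic values and PP replicate 2 far below (adjusted p = 0.456). Compared per kilobase of exon, Junb was at 3290.4 CPM per kb in colonic libraries and 2103 CPM per kb in PP libraries.

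Immediate early genes, which also respond to tissue dissociation, are given beside these values because colon and PP were dissociated differently. Of 19 tested, 3 were higher and none lower, at a median log2 fold change of 0.94. These were Atf3 and the heat shock genes Hspa1a, at 519, 1212 and 729 CPM against 50.3 and 58.2 CPM (log2 fold change 3.92, SE 0.411, adjusted p = 0.0154), and Hspa1b, at 1322, 2951 and 1698 CPM against 151 and 146 CPM (log2 fold change 3.74, SE 0.398, adjusted p = 0.0154). The 2 genes are near-identical copies counted from uniquely mapped reads alone, so the split between them is uncertain. Fos and Dusp1, classical early genes, had log2 fold changes of 0.33 (adjusted p = 0.505) and 0.12 (adjusted p = 0.774), and Btg2 was the lowest, at -0.84 (adjusted p = 0.109). The part of dissociation in the AP-1 values was not tested.

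Of 18 genes induced by the T cell receptor or NF-kB, 3 were higher, none was lower and the median log2 fold change was 0.72. Tnfrsf9, a costimulatory receptor of activated Tregs, was at 1270.4, 1940.0 and 2191 CPM against 558 and 371 CPM (log2 fold change 1.96, SE 0.313, adjusted p = 0.0356). Nfkbia and Nfkb2, an inhibitor and a subunit of NF-kB, were at 2599.6, 3735 and 4057 CPM against 1194 and 765 CPM (log2 fold change 1.82, SE 0.297, adjusted p = 0.0374) and at 457, 472 and 515 CPM against 248 and 184 CPM (log2 fold change 1.15, SE 0.189, adjusted p = 0.0382). PP replicate 2 was below PP replicate 1 in each of the 3. The same held for Tnfaip3, at 5369.6 and 2821 CPM, and for Nr4a1, at 3373 and 1366 CPM, neither of which was called (adjusted p = 0.186 and 0.419). Egr2 and Egr3, transcription factors induced by the T cell receptor, had values in the other direction, -1.65 (adjusted p = 0.0846) and -1.03 (adjusted p = 0.0956).

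Receptors for interleukins were higher for 5 of 18 members and lower for none, with a median log2 fold change of 0.93. Il12rb1, the chain shared by the receptors of IL-12 and IL-23, was at 242, 206 and 205 CPM in colonic and 57.9 and 42.7 CPM in PP libraries (log2 fold change 2.11, SE 0.201, adjusted p = 0.0123). Il10ra, through which Tregs sense IL-10, was at 304, 489 and 426 CPM against 110.5 and 109.8 CPM (log2 fold change 1.88, SE 0.238, adjusted p = 0.0202), and Il4ra at a log2 fold change of 1.32 (adjusted p = 0.0348), beside Il1rl1 and Il23r. Il6ra had the lowest value, -1.51 (adjusted p = 0.121). Of 10 costimulatory and inhibitory receptors, Havcr2 was higher and Btla lower, and Cd28 was at 0.72 (adjusted p = 0.0699). Of 14 genes of the TNF superfamily, Tnfrsf9 was higher and Cd27, a receptor of less differentiated T cells, was lower, at 191, 143 and 136 CPM against 346 and 339 CPM (log2 fold change -1.13, SE 0.189, adjusted p = 0.0398).

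Sensors of the gut environment were higher for 3 of 9 tested members and lower for none, with a median log2 fold change of 0.75. Ffar2, a receptor for short-chain fatty acids, was at 8.21, 7.40 and 11.1 CPM in colonic and 0.891 and 0.515 CPM in PP libraries (log2 fold change 3.60, SE 0.408, adjusted p = 0.0172). Its colonic level was low but every value lay at least 8-fold above both PP values. The retinoic acid receptor gene Rara and its partner Rxra had log2 fold changes of 1.29 (adjusted p = 0.0344) and 0.89 (adjusted p = 0.0459), while Vdr, the vitamin D receptor gene, was at -0.56 (adjusted p = 0.195) and did not pass.

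Few metabolic genes were called. Of 16 glycolysis genes, 1 was higher, Hk2, a hexokinase that commits glucose to glycolysis, at 16.9, 29.0 and 24.4 CPM against 4.22 and 4.63 CPM (log2 fold change 2.40, SE 0.300, adjusted p = 0.0202), and the median log2 fold change of the list was 0.44. The lactate exporter gene Slc16a3 was lowest, at -0.37 (adjusted p = 0.762), with PP values of 70.6 and 23.5 CPM. None of 12 genes of fatty acid oxidation, 24 of oxidative phosphorylation or 15 of cholesterol synthesis was called, at medians of 0.01, 0.16 and 0.49. Oxidative phosphorylation genes lay between -0.20 and 0.52, and those of fatty acid oxidation between -0.40 and 0.28. Sqle and Hmgcs1 were the cholesterol genes nearest to the threshold, at 0.86 (adjusted p = 0.0629) and 0.91 (adjusted p = 0.0798), and Fdps had the lowest value, -0.52 (adjusted p = 0.478). Of the BCL2 family, 1 of 14 genes was called, Bcl2l1, at a median of -0.02.

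None of 20 cell cycle genes was called, although 19 had positive values and their median log2 fold change was 1.47. Their summed level was 928, 853 and 1963 CPM in colonic and 778 and 848 CPM in PP libraries, so that colonic replicate 3 was more than 2-fold above each of the others. Mki67, a marker of cycling cells, was at 23.7, 25.6 and 71.7 CPM against 16.6 and 13.0 CPM (adjusted p = 0.202), and Ube2c at 2.08, 2.78 and 32.1 CPM against 0.720 and 1.54 CPM. None of 16 interferon-stimulated genes was called either, at a median of 0.10 and summed levels of 1558, 791 and 906 CPM in colonic and 1048 and 987 CPM in PP libraries, with colonic replicate 1 the highest. Ifit3 and Ifi44 had the extreme values, 1.48 (adjusted p = 0.426) and -1.25 (adjusted p = 0.443).

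Of 15 Treg identity genes, 1 was higher (Il2ra, which follows the sort gate) and 1 lower, and their median log2 fold change was 0.23. The lower gene was Izumo1r, which encodes folate receptor 4, a surface marker of Tregs and follicular T cells, at 251, 144 and 215 CPM in colonic and 606 and 633 CPM in PP libraries (log2 fold change -1.61, SE 0.243, adjusted p = 0.0322). Gpr83, a receptor of naive Tregs, was at -1.58 (adjusted p = 0.0851). None of the 10 T cell defining genes was called, at a median of -0.32, between Trbc2 at -0.91 (adjusted p = 0.0585) and Cd4 at 0.27 (adjusted p = 0.422).

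**Figure D3:**
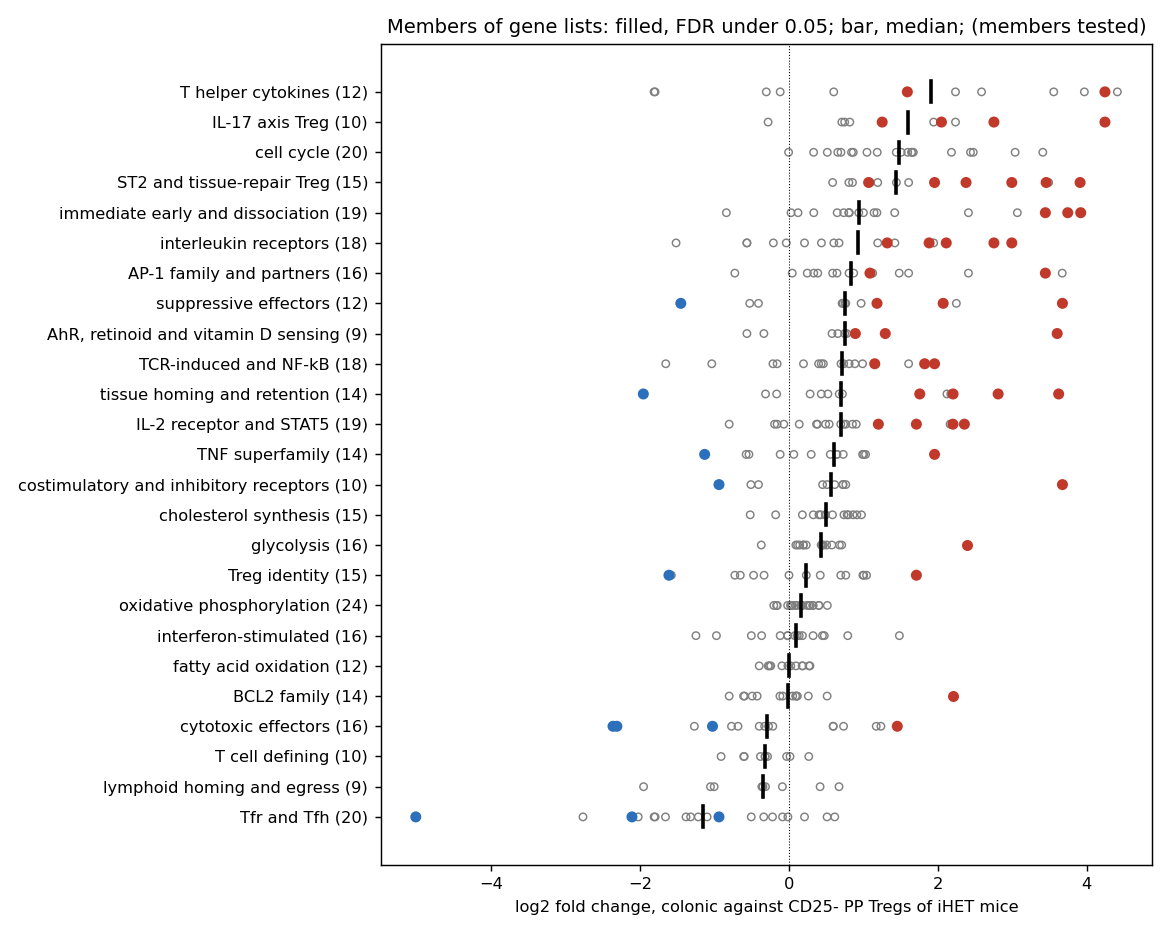
Log2 fold change of colonic against CD25- PP Tregs of iHET mice (x axis) for the members of 25 gene lists, ordered by median (black bar), with the number of members tested in parentheses. Filled points passed an FDR of 0.05, red where higher and blue where lower in colon; genes of ST2+ Tregs and of the IL-17 axis have medians of 1.44 and 1.60, and Tfr and Tfh genes of -1.16.

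Transcripts of other cell types were present in both groups. Of 15 tested markers of epithelium at large and of small intestine, 3 were lower in colonic libraries, although 8 had positive values and the median log2 fold change was 1.02, and the summed level was 472, 1142 and 317 CPM in colonic and 627 and 359.7 CPM in PP libraries. Apoa1 (ENSMUSG00000032083.8, chromosome 9 from 46228580 to 46230466), an apolipoprotein of small intestinal enterocytes, had 0, 4 and 0 counts in colonic and 2306 and 2284 counts in PP libraries, Apoa4 0, 0 and 0 and 1078 and 1439, and Fabp1, a fatty acid-binding protein of enterocytes, 0, 0 and 0 and 2697 and 712 (adjusted p = 0.00250, 0.00418 and 0.0202). With a floor of 3 counts per library, Apoa4 was at least 443-fold and Fabp1 at least 599.7-fold lower in colon, and 1266 exon bases of Apoa4 are shared with other genes. Apob, the structural protein of chylomicrons, was lower with a log2 fold change of -3.44 (adjusted p = 0.00526). Car1 (ENSMUSG00000027556.15, chromosome 3 from 14766216 to 14808368), a carbonic anhydrase of colonic epithelium, was the reverse, with 10398, 6933 and 2609 counts in colonic and 1 and 0 in PP libraries (adjusted p = 0.00955). It was the only one called of 9 tested markers of colonic epithelium and goblet cells, whose summed levels were 411, 228 and 232 CPM and 328 and 11.4 CPM. The goblet cell gene Fcgbp was at 154 and 1.61 CPM in PP replicates 1 and 2, so the PP libraries differed from each other in this list. Krt19, a keratin of both segments, was at 115, 318 and 54.3 CPM against 39.2 and 4.15 CPM and was not called (adjusted p = 0.216). The part of epithelial RNA in the called genes was not tested.

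Plasma cell markers summed to 1444, 272 and 772 CPM in colonic and 122 and 96.6 CPM in PP libraries. Of 7 tested, Jchain, which joins secreted IgA, was higher, at 94.2, 34.2 and 91.2 CPM against 4.77 and 4.43 CPM (log2 fold change 3.98, SE 0.501, adjusted p = 0.0202), and Pou2af1, a coactivator of B cells that follicular T cells also express, was lower, at -2.83 (adjusted p = 0.0322). Of 15 B cell markers, 1 was called, Ighm, at 309, 188 and 273 CPM in colonic and 848 and 852 CPM in PP libraries (log2 fold change -1.73, adjusted p = 0.0218), while the defining marker Cd79a stayed under 8 CPM in every library. For myeloid markers the median log2 fold change was 2.12, 11 of 11 values were positive and none was called, and their sums were 198, 110.0 and 337 CPM and 59.9 and 105 CPM. Of 6 tested markers of stroma and endothelium, Col1a2 was higher, at 4.53 (adjusted p = 0.0453), and the sums were 195, 527 and 354 CPM and 130.1 and 164 CPM. Markers of erythroid cells and platelets had 3 tested members and none called. The part of these cells in the genes called higher in colon, among them the inflammatory genes Mmp9, Ccr1 and Ccr2, which myeloid cells also express, was not tested.

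**Figure D4:**
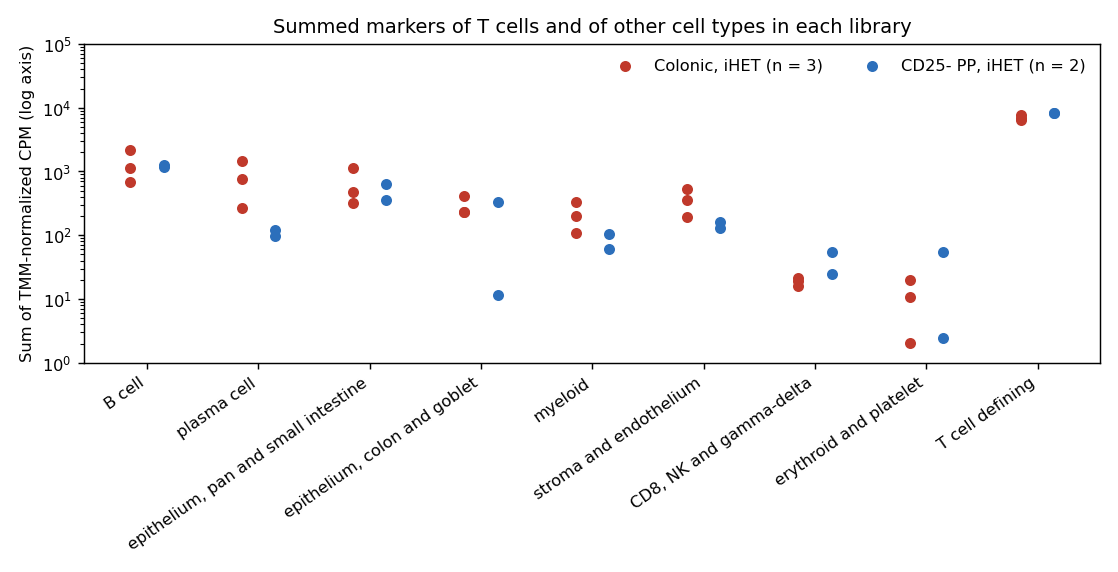
Sum of TMM-normalized CPM (log axis) over the tested markers of other cell types and over the T cell defining genes in each library, red for colonic (n = 3) and blue for CD25- PP (n = 2) iHET libraries. Plasma cell, myeloid and stromal sums are higher in every colonic library, at 1444, 272 and 772 CPM for plasma cells against 122 and 96.6 CPM in PP, and the goblet list differs most between the PP libraries.

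The same organ comparison was available in 5 libraries of Junb F/F (iKO) mice of the same line, 3 colonic and 2 CD25- PP, which share no library with the comparison above, although iHET and iKO mice of the colonic groups were caged together in pairs of 1 each. The study found that its colonic libraries grouped more by cage than by genotype. Sort gates and tissue preparation were also shared, so the 2 comparisons are not independent. In iKO Tregs, 1267 of 17362 genes tested (7.3%) were called, 699 higher (4.03%) and 568 lower (3.27%). Of the 430 genes called in iHET Tregs, 407 were tested in iKO Tregs, of which 404 (99.3%) had the same direction, against 74.9% of 16575 genes tested in both. Both tests called 282, which is 69.3% of those 407 and 22.3% of the iKO calls. The 3 genes of opposite direction were Smim24, Cgref1 and Guca2b, chosen after their values were seen. The genes called higher in iHET Tregs had a median log2 fold change of 2.05 in iHET and 1.50 in iKO Tregs, and those called lower -2.04 and -1.38. These genes were chosen on their iHET values, so the smaller iKO medians are a description.

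**Figure D5:**
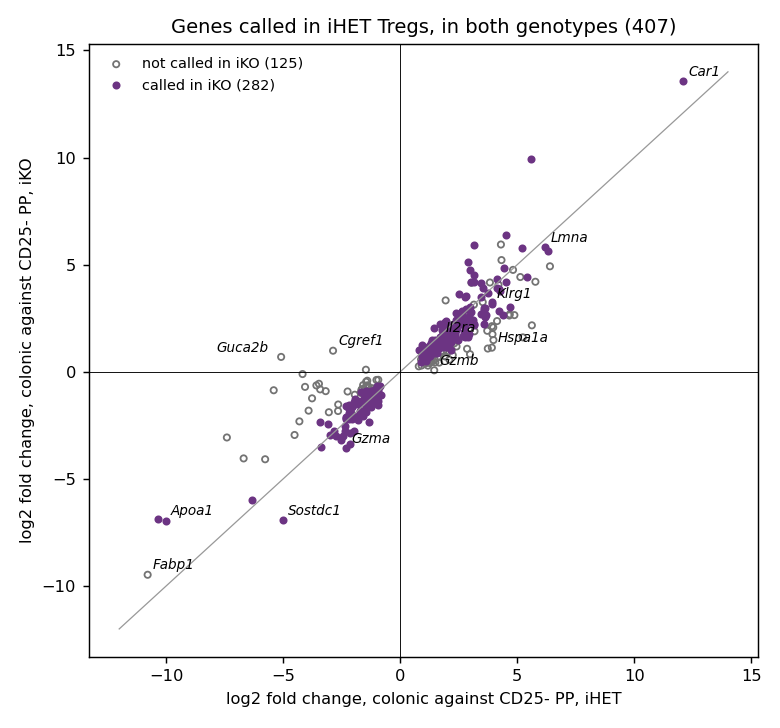
Log2 fold change of colonic against CD25- PP Tregs in iHET (x axis) and iKO libraries (y axis) for the 407 genes called in iHET and tested in both, where filled points were also called in iKO (282) and the grey line marks equal values. Of the points, 404 lie in the same direction in both genotypes; Gzmb is at 1.46 in iHET and 0.07 in iKO, and the labelled Guca2b and Cgref1 are 2 of the 3 genes in opposite directions.

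Set side by side, the organ difference of Il1rl1 was 2.99 in iHET and 2.41 (adjusted p = 0.0119) in iKO Tregs, and that of Il10 1.18 and 0.79 (adjusted p = 0.0445). Il2ra, which follows the sort gate in both genotypes, differed by 1.71 and 1.61 (adjusted p = 0.00356). Sostdc1 was at -5.01 and -6.93 (adjusted p = 0.0114), and Ccr9 at -1.95 and -2.75 (adjusted p = 0.00583). Of the 20 Tfr and Tfh genes, 13 were called lower and 0 higher in iKO Tregs, where 3.27% of all genes tested were called lower. Gzmb differed by 1.46 in iHET and by 0.07 (adjusted p = 0.919) in iKO Tregs, Adam8 by 2.90 and 1.62 (adjusted p = 0.0243), Ccr1 by 3.62 and 2.99 (adjusted p = 0.00565) and Hspa1a by 3.92 and 1.13 (adjusted p = 0.561). Whether the organ difference depended on genotype was tested as an interaction over the 10 libraries. None of 18626 genes passed the FDR, with 622 (3.34%) at an unadjusted p under 0.05, and DESeq2's Wald test called 2. For Gzmb the difference between the 2 log2 fold changes was 1.37 (SE 0.426, unadjusted p = 0.00929) and for Adam8 1.26 (SE 0.322, unadjusted p = 0.00293), both with an adjusted p of 1.00. The 5 lowest p-values were those of Tnfrsf8, Gstm1, Gas2, Lta and Cd63-ps, with differences of 1.35, -4.88, 1.67, -1.0 and -2.42 and unadjusted p between 0.000473 and 0.00157.

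PP Tregs sorted without the CD25- gate were available from 2 male HET mice of a line with constitutive Foxp3-YFP-cre and no tamoxifen, sorted by another gate that takes only a part of the Tregs, and normalized in a table of their own. By that gate they are not total PP Tregs, although the text of the paper names them so. They differ in line, drug, sex, gate and sequencing, with a HiSeq for these libraries and a NovaSeq for those of the inducible line. Their values are therefore given side by side without a test. Il2ra was at 467 and 482 CPM in these libraries, beside 184 and 207 CPM in CD25- PP and 556, 742 and 622 CPM in colonic Tregs. Cish and Bcl2l1 were at 198 and 196 CPM and 71.6 and 67.4 CPM, near the values of the CD25- PP libraries (219 and 229 and 56.8 and 53.6 CPM). Ccr9 and Sostdc1 were at 219.9 and 269 CPM and 122 and 79.3 CPM, on the side of the CD25- PP libraries. Il1rl1 and Klrg1 stood at 87.3 and 126 CPM and 86.0 and 119 CPM, above the CD25- PP and below the colonic values. Il10, at 437 and 450.3 CPM, was above both groups, and Gzmb, at 263 and 361 CPM, was below the colonic values. Lmna and Myadm were at 8.57 and 10.2 CPM and 8.54 and 11.6 CPM, on the side of the CD25- PP libraries.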

How the data were processed

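Reads had been trimmed and aligned to GRCm38 (STAR, unique hits only) by the authors, who took paired-end libraries as single-end. They counted reads per gene with featureCounts at default settings, which ignore strand and leave out reads that overlap more than 1 gene. Exon bases shared with another gene are thus undercounted, while values per kilobase use the full exon length. Tool names also stand in the submitters' processing notes. The deposited values are these raw counts, unscaled. The members, gene lists and comparisons were chosen with earlier results of these data known. Genes that reached 1 CPM in 2 or more libraries entered the test with edgeR 4.0.16 (R 4.3.3; TMM, prior count 1, quasi-likelihood test, Benjamini-Hochberg FDR under 0.05) on the 5 libraries. For its own comparisons the study used edgeR's exact test in PP and the likelihood ratio test in colon, and both were alternatives here, as were DESeq2 1.42.0, other scalings and filters, terms for sex or replicate number, and leaving out libraries. SE are of the fitted coefficient. Symbols and positions came from GENCODE M21, which matched 55394 of 55487 IDs, while the paper names M22. The tests were also run on data simulated from the fitted negative binomial model, which cannot show how they behave where real data depart from it. The 2-group fit had a biological coefficient of variation of 33.2%. A floor of 3 counts lies at 0.0845 to 0.113 CPM and covers counting error only, since reads carry no molecular identifiers. Genes named are the 10 protein-coding genes of lowest p in each direction among called genes whose groups do not overlap and whose mean is at least 10 CPM, members of the lists, a set of Treg genes fixed by name, and the 5 lowest p-values of the interaction. Any other gene is said to have been picked with its values in view. Results for a few genes are not reported here. Plots were drawn with matplotlib 3.10.9.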

Additional observations from a re-analysis of the deposited data

How the results depend on the processing

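The number of genes called in colonic against CD25- PP iHET Tregs was 430 and moved with the test and the number of libraries. It was 1488 by edgeR's exact test, 1552 by its likelihood ratio test, 1937 by DESeq2, 2073 of 42394 genes without a filter, 1201 with all 10 libraries in the fit and 139 with a term for sex. Leaving out 1 library gave 2 to 756 calls, where a lone PP library was assumed to vary like the colonic ones. RLE and upper-quartile scaling, a minimum of 10 counts in every library and a smaller prior count gave 435, 415, 536 and 430. Without the filter the median of all genes moved to -0.23, and in the others it stayed within 0.04 of 0. The groups of the 430 genes do not overlap, so leaving out a library could not reverse their direction. The direction of the 430 genes held in every alternative that tested them, while 1 gene, Sostdc1, was called in all 5 fits that left out a library.

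With the replicate number as a block, 49 genes were called, 35 of them among the 430, and the interaction called 0. The labels do not say that a number marks the same mouse in both organs, so the numbers were not taken as pairs. For the 2 shared numbers the deviations from the group means correlated at 0.130 and -0.0335. The deviations of 2 PP libraries mirror each other, so these values cannot exclude pairing.

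The interaction called 0 genes with 622 at an unadjusted p under 0.05, 282 of 44972 without a filter, 2 by DESeq2 and 0 in each fit without 1 library, from 312 to 1111 at an unadjusted p under 0.05. Over the 89 called genes that the naming rule covers, 326 of 1414 values under an alternative lost the threshold and none changed sign. The groups of the called genes do not overlap, so leaving out a library could not change their sign. Of the named genes not called, 45 passed the threshold by edgeR's exact test, 45 by its likelihood ratio test and 51 by DESeq2. The other 32, 32 and 26 did not. Among these genes, 3 changed sign without PP replicate 1: Gstm1, Fcgbp and Slc16a3, at log2 fold changes of 0.79, 2.28 and 0.65. Leaving out each library in turn gave them -1.15 to 0.79, -6.19 to 2.28 and -0.96 to 0.65. The causes were not tested. The median of the fatty acid oxidation list changed sign under upper-quartile scaling (-0.02) and without colonic replicate 2, colonic replicate 3 or PP replicate 1 (-0.03, -0.07 and -0.05), and those of cytotoxic effectors and of the goblet list without PP replicate 1 (0.07 and 3.72). The medians of the oxidative phosphorylation, interferon, BCL2, B cell, CD8, erythroid and sex-linked lists also crossed 0 in at least 1 fit that left out a library. Depth limits statements on genes near the floor of 0.0845 to 0.113 CPM, among them the cytokine genes Il5, Csf2 and Il22 in PP.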

Other observations

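The genes named here were on no list and were picked from the called genes after their values were seen, so they say nothing of the gene families they belong to. Among the genes higher in colonic Tregs were Vim, an intermediate filament gene, at 646, 980.0 and 1117 CPM in colonic and 172 and 161 CPM in PP libraries (log2 fold change 2.45, adjusted p = 0.0172), Ahnak, a large scaffold protein gene, at 2.24 (adjusted p = 0.0202), the calcium-binding S100a6 at 2.63 (adjusted p = 0.0453), Crip1 at 1.91 (adjusted p = 0.0449), the integrin chains Itgb5 and Itgb1 at 2.57 (adjusted p = 0.0120) and 1.05 (adjusted p = 0.0394), and Cd44, the hyaluronan receptor, at 1.35 (adjusted p = 0.0218). The prostacyclin receptor gene Ptgir was at 42.7, 79.6 and 55.5 CPM against 8.67 and 13.8 CPM (log2 fold change 2.39, adjusted p = 0.0292), and the neuromedin U receptor gene Nmur1 at 43.4, 50.8 and 60.8 CPM against 7.71 and 8.68 CPM (log2 fold change 2.65, adjusted p = 0.00778). Hrh4, a histamine receptor gene, P2ry2, a nucleotide receptor gene, and the chemokine receptor gene Xcr1 had log2 fold changes of 2.98 (adjusted p = 0.0416), 3.94 (adjusted p = 0.0322) and 2.25 (adjusted p = 0.0416), at mean colonic levels of 2.67, 1.53 and 10.5 CPM.

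Of 73 variable genes of the T cell receptor alpha and beta chains tested, 3 were called, all lower in colonic Tregs. Over all genes tested, 1.65% were called higher and 0.841% lower. The 3 were Trbv13-2 at -1.34 (adjusted p = 0.0193), Trbv3 at -1.47 (adjusted p = 0.0218) and Trbv17 at -1.46 (adjusted p = 0.0421). Trbv13-2 was at 33.3, 33.6 and 35.5 CPM in colonic and 96.2 and 77.2 CPM in PP libraries. Themis, a gene of T cell receptor signaling, was lower as well, at -0.94 (adjusted p = 0.0406). Called lower in colonic libraries were also the digestive enzyme gene Sis, at 0, 9 and 0 counts in colonic and 574 and 683 counts in PP libraries (adjusted p = 0.0193), the lipoprotein assembly gene Mttp, at -3.91 (adjusted p = 0.0192) and the retinol-binding Rbp2, at -6.34 (adjusted p = 0.0259), while the fixed list of epithelial and small intestinal markers had a median log2 fold change of 1.02. The neutrophil chemokine genes Cxcl2 and Cxcl3 were higher, at 4.38 (adjusted p = 0.0218) and 4.88 (adjusted p = 0.0139), with 16.7, 24.2 and 50.9 CPM and 5.92, 11.0 and 11.6 CPM in colonic libraries.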
